A study of Mus musculus with 9 samples.

Results

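Cancer cells leave a tumour through a matrix that proteases take apart. The transcripts examined here encode matrix metalloproteinases, their tissue inhibitors (TIMPs) and the urokinase arm of plasminogen activation, in mouse NPK prostate cancer cells. The members were chosen by name (Mmp2, Mmp3, Mmp9, Mmp14, Timp1, Timp2, Timp3, Plau and Plaur), and 8 of the 9 had values among the 12842 genes of the deposited table. Mmp2 was not analysed here.

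NPK cells were isolated from lung metastases of NPK mice, which carry an inducible Cre in the Nkx3.1 locus (Nkx3.1CreERT2) among their engineered alleles. Every group is labelled NPK and so shares that genotype, but whether all libraries came from a single line is not stated. They were grown in culture, and polyadenylated RNA was sequenced from 3 libraries of control cells, 3 of cells with an shRNA against Nsd2 (shNsd2) and 3 of cells treated with a compound labelled MCTP. NSD2 is a histone methyltransferase that dimethylates a lysine of histone H3. The study names a putative NSD2 inhibitor with the MCTP prefix and the number 39, and no other compound with that prefix. Whether a control shRNA was present in the control cells is not stated in the labels. For silencing, the study's methods name an shRNA against luciferase as the control, without describing these libraries separately. The MCTP label carries a different number in each library (39, 40 and 41), and what these numbers stand for is not stated. Whether these libraries received the same compound therefore cannot be told, and the dose and time were not found in the sources used here. Every shNsd2 title names Nsd2, but the source label does so for replicate 1 and gives Nsd3 for replicate 2 and Nsd4 for replicate 3. Nothing states that the 3 libraries of a group came from separate cultures, so the p-values measure the spread between these libraries, which may be technical.

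Matrix metalloproteinases are zinc enzymes made as inactive precursors. Secreted members cut collagens, proteoglycans and basement membrane, and Mmp14 works at the cell surface, where it also activates other metalloproteinases. TIMPs bind the active enzymes and block them, and Timp2 also takes part in activation at the cell surface. Plau, the urokinase plasminogen activator, binds its receptor Plaur and turns plasminogen into plasmin, a protease that opens matrix and activates metalloproteinase precursors. Transcripts do not measure the activity of such enzymes.

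The values are on a log2 scale without counts, so library depth is unknown. Transforms that stabilize variance can draw weakly expressed genes together and so understate their fold changes, which was not tested here. The root mean square distance of a library from the mean of the other replicates of its group over all genes was 0.204 for MCTP replicate 2 and 0.155 for MCTP replicate 3, and 0.0602 to 0.117 for the other libraries. The MCTP group was thus the most widely spread. For the members and for the count of genes called, its results are given with and without replicate 2 where that matters. The MCTP values of all other genes and lists below are given with all 3 libraries only.

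Nsd2, the gene targeted, had log2 values of 12.48, 12.43 and 12.42 in the control libraries, 11.56, 11.61 and 11.68 in the shNsd2 libraries and 12.15, 12.21 and 12.07 in the MCTP libraries. All shNsd2 libraries were the lowest, the MCTP libraries lay between, and no groups overlapped. By limma, the log2 fold change of Nsd2 was -0.83 ± 0.0408 (SE) in shNsd2 against control (adjusted p = 2.26e-06), which left 56.3% of the control level.

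In shNsd2 cells all 3 TIMPs fell, Mmp3 and Mmp14 fell, and Plaur and Mmp9 rose, while Plau did not pass the test. A gene was called when its adjusted p was under 0.05. That made 7 of 8 members called, where 47.8% of all 12205 genes tested were called. Of the members, 2 were called higher and 5 lower, against 23.1% and 24.8% of all genes. This split over all genes turned with scaling: 48.2% of calls were higher on the deposited values, 52.8% after quantile normalization and 55.7% after median centring. The groups did not overlap for 7 members and for 57.2% of all genes. Since calls were this common among all genes, the count of members is read beside that share. The median log2 fold change of the members was -0.15, against 0.0020 over all genes, and Timp3 was the member called with a change of over 0.5, as 3.2% of all genes did.

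In MCTP cells Timp3 and Timp2 rose, with Plau and Plaur, and Mmp9 fell. Here 5 of 8 members were called, 4 higher and 1 lower, where 35.2% of 12216 genes were called, 18% higher and 17.2% lower. The groups did not overlap for 6 members and for 50.6% of all genes. The median log2 fold change of the members was 0.18, against -0.0062 over all genes. Timp3 was again the member that changed by over 0.5, as 5.51% of all genes did. The split of calls over all genes depended on scaling here too: 51.1% of calls were higher on the deposited values and 64.4% after each library was centred on its median. Without MCTP replicate 2, 7384 genes and 6 members were called. Fewer were called without any other library: 3 members and 2366 genes without control replicate 1, 2 and 2162 without control replicate 2, 3 and 2456 without control replicate 3, 2 and 2046 without MCTP replicate 1, and 4 and 2842 without MCTP replicate 3.

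The treatments were also compared directly. In shNsd2 against MCTP cells, 7 of 8 members were called, 1 higher and 6 lower, where 43.2% of 12217 genes were called, 20.6% higher and 22.6% lower. The groups did not overlap for 7 members and for 55% of all genes. The median log2 fold change of the members was -0.30, against 0.0072 over all genes, and Timp3 and Timp2 differed by over 0.5, as 7.26% of all genes did. The comparisons of each treatment with control share the control libraries, so their values are given side by side and are not independent. The same number of members, 7, was called in the direct comparison when any of the 6 libraries was left out. Over all genes the count depended on single libraries: from 5276 it went to 7781 without MCTP replicate 2, and to 3391 without MCTP replicate 1, 3429 without shNsd2 replicate 2 and 3420 without shNsd2 replicate 3.

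**Figure D1:**
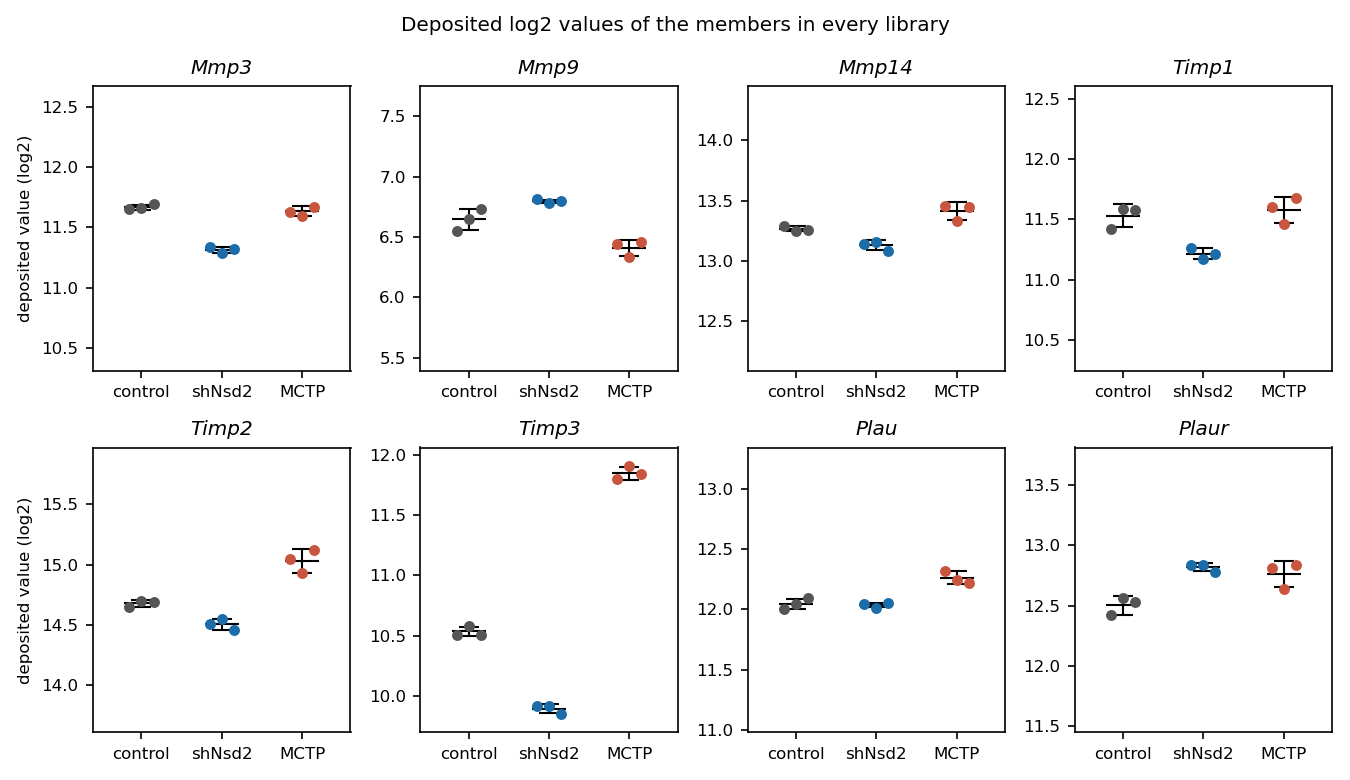
Deposited log2 value of each member in every library, 3 control, 3 shNsd2 and 3 MCTP libraries, with each panel spanning the same number of log2 units. Points are libraries, the wide bars are group means and the error bars are SD. Timp3 has the widest separation, from 9.85 in an shNsd2 library to 11.91 in an MCTP library.

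Among the inhibitors, Timp3 stays bound to the matrix after secretion and inhibits ADAM proteases as well as metalloproteinases. Its log2 values were 10.51, 10.58 and 10.51 in control, 9.92, 9.92 and 9.85 in shNsd2 and 11.80, 11.91 and 11.84 in MCTP libraries. Every shNsd2 library lay below and every MCTP library above every control library. The log2 fold change by limma was -0.64 ± 0.0398 (SE) in shNsd2 against control, 64.2% of the control level (adjusted p = 6.72e-06). In MCTP against control it was 1.31 ± 0.0517 (SE), a 2.48-fold rise (adjusted p = 1.76e-05). Between shNsd2 and MCTP it was -1.95 ± 0.0494 (SE), with an adjusted p of 6.65e-06. An exact two-sided permutation test of 3 against 3 libraries gave p = 0.1 in each of these comparisons, the smallest it can give.

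Timp2 had log2 values of 14.65, 14.70 and 14.69 in control, 14.51, 14.55 and 14.46 in shNsd2 and 15.05, 14.93 and 15.12 in MCTP libraries. It followed the order of Timp3 with smaller steps, and again no groups overlapped. Its log2 fold change was -0.17 ± 0.0386 (SE) with shNsd2 (adjusted p = 0.00630) and 0.35 ± 0.0645 (SE) with MCTP (adjusted p = 0.00610), and -0.52 ± 0.0633 (SE) between the treatments (adjusted p = 7.73e-04). Timp1, a soluble inhibitor, had values of 11.42, 11.59 and 11.58 in control, 11.26, 11.17 and 11.21 in shNsd2 and 11.60, 11.46 and 11.68 in MCTP libraries. The shNsd2 libraries lay below all others, and the control and MCTP libraries overlapped. Timp1 fell by 0.32 on the log2 scale with shNsd2 (adjusted p = 0.00105). With MCTP its log2 fold change was 0.05 (95% interval -0.12 to 0.22, adjusted p = 0.627), and its sign turned without control replicate 1 (-0.00668), without MCTP replicate 3 (-0.000842) and after correction for GC content (-0.0170).

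Of the secreted metalloproteinases, Mmp3 (stromelysin) had log2 values of 11.65, 11.66 and 11.69 in control, 11.34, 11.29 and 11.32 in shNsd2 and 11.63, 11.59 and 11.67 in MCTP libraries. It was low in the shNsd2 libraries alone, and control and MCTP libraries overlapped. Mmp3 fell to 78.4% of the control level with shNsd2, a log2 fold change of -0.35 ± 0.0331 (SE) with an adjusted p of 6.20e-05. With MCTP the log2 fold change was -0.03 (95% interval -0.14 to 0.08, adjusted p = 0.621), and the direct difference between shNsd2 and MCTP was -0.32 (adjusted p = 0.00137). The MCTP sign of Mmp3 turned under median centring (0.0152) and GC correction (0.0502).

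Mmp9, a gelatinase that cuts basement membrane collagen, had log2 values of 6.55, 6.65 and 6.73 in control, 6.81, 6.78 and 6.80 in shNsd2 and 6.44, 6.33 and 6.46 in MCTP libraries. It was the member with the lowest values, with the shNsd2 libraries above and the MCTP libraries below the controls, by little. Its log2 fold change was 0.15 ± 0.0483 (SE) with shNsd2 (adjusted p = 0.0310) and -0.24 ± 0.0604 (SE) with MCTP (adjusted p = 0.0213). Neither call was firm. The shNsd2 call was lost without control replicate 1 (adjusted p = 0.0711), control replicate 2 (0.0731), or shNsd2 replicate 1 (0.0881), 2 (0.0665) or 3 (0.0694), with all 9 libraries in one fit (0.0506) and after GC correction (0.0638). The MCTP call was lost without control replicate 2 (adjusted p = 0.0692), control replicate 3 (0.0746) or MCTP replicate 1 (0.0623), and under median centring (0.0581). The direct difference between the treatments, 0.39 ± 0.0464 (SE), had an adjusted p of 7.56e-04 and passed with each library left out in turn.

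Mmp14, the membrane-bound enzyme, had log2 values of 13.29, 13.25 and 13.26 in control, 13.14, 13.16 and 13.08 in shNsd2 and 13.46, 13.33 and 13.45 in MCTP libraries. The groups were ordered as for Timp2 and did not overlap, with MCTP replicate 2 nearest to the controls. Mmp14 fell by 0.14 on the log2 scale with shNsd2 (adjusted p = 0.0112). With MCTP its log2 fold change was 0.14 (95% interval 0.02 to 0.27), which did not pass the threshold (adjusted p = 0.0728). It passed without MCTP replicate 2 (adjusted p = 0.00530), after quantile normalization (0.0123), under median centring (0.0430) and with all 9 libraries in one fit (0.0291). With GC content corrected for, Mmp14 had a log2 fold change of 0.0603 and did not pass (adjusted p = 0.234), so the MCTP value of Mmp14 depended on the processing. The direct difference between shNsd2 and MCTP was -0.28 (adjusted p = 0.00537).

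In the plasminogen arm, Plaur had log2 values of 12.42, 12.56 and 12.53 in control, 12.84, 12.84 and 12.78 in shNsd2 and 12.81, 12.64 and 12.84 in MCTP libraries. All treated libraries lay above all controls, and the treated groups overlapped each other. Plaur rose 1.24-fold with shNsd2, a log2 fold change of 0.32 ± 0.0441 (SE) with an adjusted p of 5.08e-04. With MCTP the log2 fold change was 0.26 ± 0.0694 (SE) with an adjusted p of 0.0245. That call was lost without control replicate 1 (adjusted p = 0.0910), 2 (0.0574) or 3 (0.0665), and without MCTP replicate 1 (0.10) or 3 (0.0671). Between the treatments the difference was 0.06 (95% interval -0.09 to 0.20, adjusted p = 0.492), and its sign turned without MCTP replicate 2 (-0.00513), while after GC correction it was called (adjusted p = 0.0470).

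Plau, the ligand of Plaur, had log2 values of 12, 12.04 and 12.09 in control, 12.04, 12.01 and 12.05 in shNsd2 and 12.32, 12.24 and 12.22 in MCTP libraries. The shNsd2 libraries overlapped the controls, and the MCTP libraries lay above both groups. Plau had a log2 fold change of -0.00897 with shNsd2 (95% interval -0.09 to 0.07, adjusted p = 0.852). With MCTP it rose 1.16-fold (log2 fold change 0.22, adjusted p = 0.0157), a call lost without control replicate 1 (adjusted p = 0.0681), control replicate 2 (0.0691) or MCTP replicate 1 (0.0740). The direct difference between shNsd2 and MCTP was -0.23 (adjusted p = 0.00655). The receptor was higher in shNsd2 libraries while its ligand overlapped the controls.

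**Figure D2:**
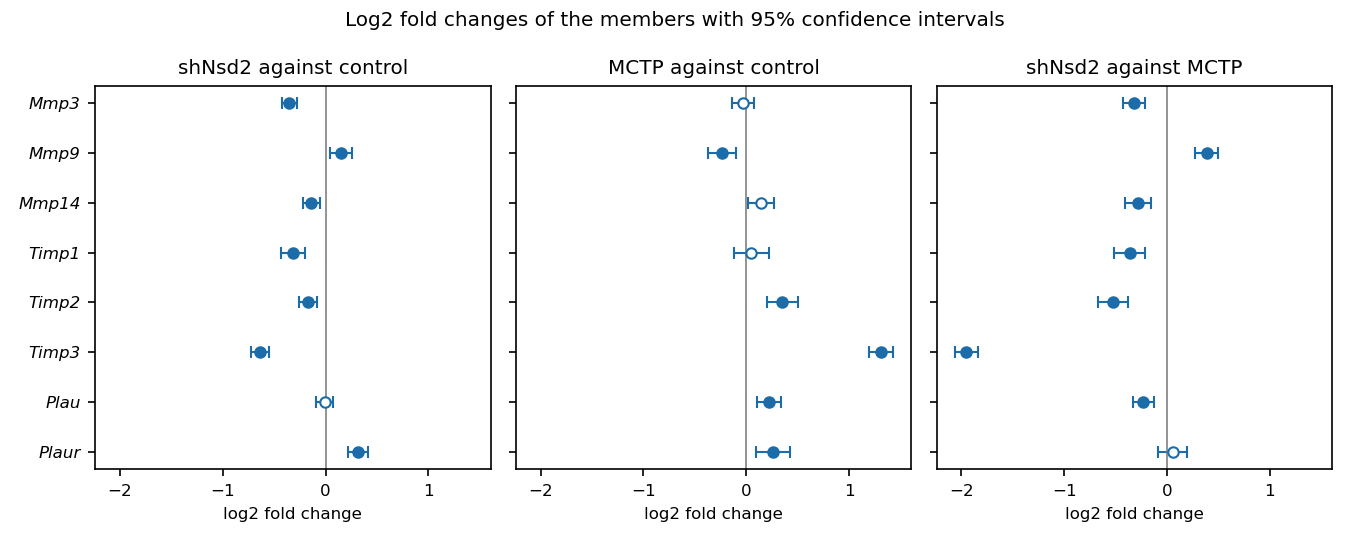
Log2 fold change (horizontal axis) of each member in each of the 3 comparisons, with 95% confidence intervals from limma as bars. Filled points passed an adjusted p of 0.05 and open points did not. Timp3 lies at -0.64 with shNsd2 and at 1.31 with MCTP, and the next largest changes against control are -0.35 (Mmp3 with shNsd2) and 0.35 (Timp2 with MCTP).

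To set the members against each other, the log2 of the length in kb of the longest transcript was subtracted from the log2 value, which gives a level per length. In control cells Timp2 had the highest level per length (12.79), followed by Timp1 (11.71), Mmp14 (11.57), Plaur (11.50), Plau (10.82), Mmp3 (10.82), Timp3 (8.30) and Mmp9 (4.98). Neighbours in that order were apart by more than the sum of their SDs, other than Mmp14 with Plaur and Plau with Mmp3. In shNsd2 cells Plaur stood next to Timp2 (11.81 against 12.62), and Mmp14 with Timp1 were not apart. In MCTP cells Timp1, Plaur and Mmp14 (11.76, 11.76 and 11.72) were not apart, and Timp3 reached 9.61. The inhibitor Timp2 led in every group and Mmp9 came last in every group.

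Mmp3 lies in a cluster of metalloproteinase genes on chromosome 9, which was singled out after the values were seen. By Ensembl identifier in GENCODE M21 (GRCm38), which is not the mm9 build of the submitters' notes, Mmp3 spans chr9:7445822-7455975 on the plus strand, and the other cluster genes with values were Mmp13, Mmp12 and Mmp10, all on the same strand. Mmp10, a second stromelysin, starts 56.5 kb from the start of Mmp3. With shNsd2, Mmp10 fell by 0.60 (adjusted p = 3.10e-05) and Mmp13 by 0.20 (adjusted p = 0.0110) on the log2 scale, whereas Mmp12, the macrophage elastase, rose by 0.20 (adjusted p = 0.00194). The cluster did not move in a single direction. With MCTP none of these 4 genes was called: the log2 fold change was -0.20 for Mmp13 (adjusted p = 0.0680), 0.13 for Mmp12 (0.0745), -0.03 for Mmp3 and -0.01 for Mmp10 (0.896). Mmp13 had log2 values of 9.23, 9.26 and 9.34 in control and 8.99, 9.22 and 9.01 in MCTP libraries, with MCTP replicate 2 nearest to the controls.

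The counts for the lists that follow are descriptions, to be read beside the shares of all genes called, 23.1% higher and 24.8% lower with shNsd2 and 18% higher and 17.2% lower with MCTP. Of 19 other metalloproteinases listed, 8 were tested. With shNsd2, 2 were called higher and 4 lower (median log2 fold change -0.13), and with MCTP 2 higher and none lower (median -0.05). Mmp15, a membrane-type enzyme like Mmp14, had a log2 fold change of 0.39 with shNsd2 and 0.998 with MCTP (adjusted p = 1.92e-04 and 1.32e-04), so it rose in both where Mmp14 fell with shNsd2. Mmp19 moved in the directions of Timp2 and Timp3, -0.22 with shNsd2 and 0.19 with MCTP (adjusted p = 0.00104 and 0.0105).

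Among other inhibitors and cofactors of metalloproteinases, all 7 tested were called with shNsd2, 1 higher and 6 lower (median log2 fold change -0.31), where 47.8% of all genes were called. Thrombospondin 1 (Thbs1), a matrix glycoprotein, had a log2 fold change of -0.89 with shNsd2 and 0.57 with MCTP (adjusted p = 5.55e-06 and 0.00265), the directions of Timp3. Thbs2 had -0.90 and -0.91. Cd44, a hyaluronan receptor, fell by 0.42 with shNsd2 (adjusted p = 5.78e-05). With MCTP 2 of the 7 were called, Thbs1 and Thbs2.

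Of 11 other genes of the plasminogen system tested, 1 was called higher and 7 lower with shNsd2 (median log2 fold change -0.18), against 23.1% and 24.8% of all genes. With MCTP 4 were called higher and none lower (median 0.16). Serpine2, which inhibits plasminogen activators, fell by 0.75 with shNsd2 (adjusted p = 3.33e-06). S100a10, a cell surface plasminogen receptor, fell by 0.31. Plat, the tissue-type activator, rose by 0.36 with MCTP (adjusted p = 0.00288). Plaur rose with shNsd2 in the libraries in which Serpine2, an inhibitor of its ligand, fell.

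ADAM and ADAMTS proteases, some of which Timp3 inhibits, had 13 genes tested. With shNsd2 none was called higher and 9 lower (median -0.29), against 23.1% and 24.8% of all genes, with Adamts1 at -0.92, Adam10 at -0.62 and Adam9 at -0.59. With MCTP 3 were called higher and 4 lower (median 0.04), with Adam15 at 0.51, Adamts1 at 0.47, Adam19 at -0.63 and Adamts10 at -0.51. A list of proprotein convertases and membrane serine proteases, with Spint1 and Spint2, which inhibit such proteases, had 8 genes tested, of which 2 were called higher and 4 lower with shNsd2 and 4 higher and 1 lower with MCTP (medians -0.08 and 0.10). Pcsk6 fell in both, by 0.64 and 0.84, and the inhibitor Spint1 was among those called higher in both, at 0.41 and 0.24. Of 11 cathepsins and cystatins, 1 was called higher and 6 lower with shNsd2, with Ctso at -0.72, and 7 higher and 1 lower with MCTP, with Ctsd at 0.74 and Ctsa at 0.70 (medians -0.16 and 0.24).

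AP-1 and ETS factors are known regulators of metalloproteinase and urokinase receptor genes. Of 14 tested, 5 were called higher and 4 lower with shNsd2 (median 0.01), with Fosb at 0.51, Fosl1 at 0.30, Jund at 0.28 and Etv1 at -0.43, and 2 higher and 4 lower with MCTP (median -0.04), with Fosl2 and Jund at 0.41, Etv1 at -0.48 and Etv4 at -0.45. Promoter windows from RefSeq (GRCm38.p6; 250 bases before to 50 after the start) were held for 6 members, Mmp3, Mmp14, Timp1, Timp2, Timp3 and Plaur. The AP-1 motif TGAGTCA, read on both strands (TGACTCA on the other), was in 2 of these windows, and in 5.2% of all 32851 promoter windows. Those members, Mmp3 and Plaur, fell and rose with shNsd2. The stretches that hold the motif are shown because these members moved in opposite directions, with the motif in capitals, on the plus strand at chr9:7445765-7445794 and chr7:24462403-24462432.
Mmp3: ggaagcaattaTGAGTCAgttttcgggtga
Plaur: acccctggagcTGACTCActctttagcaaa
The ETS motif AGGAAG, which reads CTTCCT on the other strand, was in 5 of the 6 windows, all but that of Timp2, and in 35.4% of all windows. These matches describe letters, and binding was not measured.

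The genes whose pattern over the 9 libraries was nearest to Timp3, by the root mean square difference after subtracting each gene's mean, among 12092 genes, were Spon2 (0.116), Txnip (0.184) and Ctgf (0.198). Spon2 encodes a secreted matrix protein and had mean log2 values of 7.60, 7.03 and 8.81 in control, shNsd2 and MCTP cells. For Timp2 they were Tmco3 (0.0210), Mpv17 (0.0218) and Gstm4 (0.0219).

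TIMPs and metalloproteinases are also made by stromal cells and macrophages, so markers of other cell types were examined. Epithelial keratins were abundant, with Krt8 at a mean of 16.28 in control cells. Of 16 macrophage and leukocyte markers, 13 had no values here, Ptprc, Csf1r and Adgre1 among them. The summed level of the other 3 (log2 of the sum of linear values) was 10.41 to 10.55 in control, 10.62 to 10.64 in shNsd2 and 10.48 to 10.64 in MCTP libraries, mostly from Cd14. All 3 were tested, and 2 were called higher and none lower in each comparison with control; Cd68 rose by 0.23 with shNsd2 and 0.73 with MCTP. Of 8 endothelial markers only Cdh5 had values, 3.47 to 3.71, under the 3.78 that a gene had to pass. Of 12 fibroblast markers 6 had values, with a summed level of 10.99 to 11.18 in control, 10.84 to 10.85 in shNsd2 and 11.22 to 11.29 in MCTP libraries and Col3a1 the most abundant, while Dcn was at 2.31 to 2.50.

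Of the fibroblast list 5 genes were tested, of which 2 were called higher and 2 lower with shNsd2 and 2 higher and 1 lower with MCTP. Acta2, smooth muscle actin, stood apart with MCTP. Its log2 values were 5.83, 6.03 and 5.98 in control, 6.04, 6.18 and 6.01 in shNsd2 and 8.91, 8.81 and 9.16 in MCTP libraries, a log2 fold change of 3.02 (adjusted p = 7.18e-06). Fbln1, of the same list, rose by 0.22 with MCTP (adjusted p = 0.00127) and by 0.55 with shNsd2 (adjusted p = 5.14e-06). With shNsd2 Col1a1 fell by 0.30 and Col3a1 by 0.28 (adjusted p = 0.00111 and 0.00280). With MCTP Col1a1 fell by 0.33, and Col3a1 had a log2 fold change of -0.12 (adjusted p = 0.209). Acta2 rose in the libraries in which Timp3 was high, and its part in that result was not tested. In such bulk RNA, fewer cells of a type and less RNA per cell cannot be told apart. Of the epithelial list 9 were tested, of which 1 was called higher and 6 lower with shNsd2, with Krt15 at -1.20 and Krt14 at 0.78, and 2 higher and 1 lower with MCTP, with Krt14 at 1.19, Krt19 at 0.37 and Cdh1 at -0.34.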

How the data were processed

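The authors deposited a table of log2-scale values for 12842 genes, scaled between libraries. The table does not name the transform; the authors' methods describe normalization and variance stabilization of counts with DESeq2 for tumour profiles and not separately for these libraries. The submitters' processing notes list bcl2fastq 1.8.4, TopHat, Cufflinks, DESeq and DESeq2 with the build mm9, without saying what each did. The table has 12 columns of values, and the 3 that could not be matched to a sample stayed unused. Groups and replicate numbers came from sample titles.

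Genes were tested if at least 3 of the 6 libraries compared passed 3.78, the median of the lowest 10% of values. Groups were compared with limma 3.58.1 under R 4.3.3, using eBayes with a trend of variance on the mean and no block or covariate, and p-values were adjusted by Benjamini-Hochberg across the genes tested (threshold 0.05). Named genes were the members, Nsd2 (listed as Whsc1), of each list up to 4 called genes with the largest changes, detected markers, and the 3 genes of nearest pattern for members whose group means spanned over 0.5. Mmp12, and the MCTP values of its cluster, were added for their position after their values were seen. Some items that these rules or the genotype cover are not reported here. Members and lists were chosen with earlier results of these data known. Alternatives were testing without a filter, fitting all 9 libraries together, the replicate number as a block, each library left out, quantile normalization, median centring, no trend, GC correction by lowess (span 0.3), and a call that also needs a log2 fold change over 0.5. The procedure was tested on simulated data. Identifiers of 12513 genes (97.4%) matched GENCODE M21, the source of lengths, GC content and positions. Python 3.11.15 and matplotlib 3.10.9 were used for descriptions and figures.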

Additional observations from a re-analysis of the deposited data

Results flagged for a closer look

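For 4 of 8 members every shNsd2 library lay on one side of every control library and every MCTP library on the other, and the direct difference passed limma's test at an adjusted p under 0.05. The same held for 9.51% of 12188 genes tested in all 3 comparisons. The direct log2 fold change of shNsd2 against MCTP was -1.95 for Timp3, -0.52 for Timp2, -0.28 for Mmp14 and 0.39 for Mmp9. Timp3 and Timp2 were also called against control in both treatments, with every library left out in turn. The calls of Mmp9 against control were lost without several single libraries. The MCTP change of Mmp14 against control did not pass (adjusted p = 0.0728) and was 0.0603 on the log2 scale after GC correction. The treatments share the control libraries and differ in kind, an shRNA and a compound, and the cause of these differences was not tested.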

How the results depend on the processing

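The count of members called was within 1.5 times its main value under most alternatives. A call that also needs a log2 fold change over 0.5 left 1 member with shNsd2, 1 with MCTP and 2 in shNsd2 against MCTP, by construction. With single libraries left out, the counts ran from 6 to 7 with shNsd2, from 2 to 6 with MCTP and from 7 to 7 in the direct comparison. With the replicate number as a block (replicate block), 6 members were called with shNsd2, where Mmp9 was lost (adjusted p = 0.0565), 3 with MCTP, where Plau and Plaur were lost and Mmp14 had an adjusted p of 0.162, and 7 in the direct comparison. Same-numbered libraries showed no pairing on average: the mean correlation of their deviations was -0.25, -0.19 and -0.36 in the 3 comparisons. Single pairs went both ways, from -0.51 to 0.25 in shNsd2 against control, -0.60 to 0.61 in MCTP against control and -0.81 to 0.35 in shNsd2 against MCTP. The lost calls are therefore not described as weaker effects.

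Of 312 single member values under the alternatives, 275 kept direction and side of the threshold, 22 lost their call, 5 gained one and 10 changed sign. Those that changed sign were members not called. Plau with shNsd2 was 0.0134 under median centring, 0.0114 after GC correction and from -0.0310 to 0.0132 with single libraries left out. Mmp3 with MCTP was 0.0152 under median centring and 0.0502 after GC correction. Timp1 with MCTP was -0.0170 after GC correction and from -0.00668 to 0.107 with single libraries left out. Plaur between the treatments was from -0.00513 to 0.0939 with single libraries left out. The cause was not tested, and leaving out a library also lowers the number of samples.

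The depth of the libraries is unknown, 3 libraries a group limit precision, and a p that misses the threshold does not show that values did not differ. Correcting for GC content can also take out real changes that track it. Transcript levels do not show protein or protease activity.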
